A study of Homo sapiens with 32 samples.

Results

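H9 is a human T-cell line that the labels assign to cutaneous T-cell lymphoma, a cancer of mature T cells that home to the skin. The comparison described here is the response of H9 to azacitidine, given by 6 libraries with the drug and 2 without, chosen by cell line and treatment labels alone. These are 8 of the 32 RNA-seq libraries of the series, which hold 8 treatments in each of 4 human T-cell lines. The libraries without azacitidine were 1 untreated and 1 with romidepsin at 1 nM. The libraries with azacitidine were at 50, 125 and 250 nM of the drug alone and at the same doses with romidepsin at 1 nM, and libraries were matched on whether romidepsin was given. Cells were in logarithmic growth and were exposed for 96 hours, with romidepsin added once and azacitidine added daily, per the labels. Titles of the drug combinations carry doses with no unit, which were read as nM. HH, a line with the same labelled disease and the same azacitidine doses, served as the comparison line, where the romidepsin dose was 1 nM without azacitidine and 1.25 nM together with it. Each condition was 1 library of 1 line, and nothing in the labels says that libraries came from separate cultures. The p-values measure only the spread of libraries around the fit, shared over the 4 lines, which may be technical. Where a fit had no term for dose, that spread also held any differences between azacitidine doses.

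Azacitidine is a cytidine analogue that cells phosphorylate and build into RNA and, after reduction, into DNA, where it traps DNA methyltransferases. Methylation is then lost as cells divide, and genes held silent by promoter methylation, of which germline genes on the X chromosome are the best known, can be transcribed. Romidepsin inhibits histone deacetylases, which remove acetyl groups that mark active chromatin. MHC class II molecules, which present peptides to CD4+ T cells, are made in human T cells after activation, under the control of the coactivator CIITA.

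H9 libraries held 22098317 to 29431141 counts, and a floor of 3 counts corresponded to 0.103 to 0.133 CPM (counts scaled to library size, with edgeR's TMM factors). Of 10 T-cell markers, 9 were at 1 CPM or more in 8 of 8 H9 libraries, and the exception was CD2, at 0.276 to 0.662 CPM. Markers of other cell types were not all silent: the epithelial genes EPCAM (84.4 to 159 CPM) and KRT7 (57.7 to 97.2 CPM) and the B-cell receptor genes CD79A (32.6 to 72.4 CPM) and CD79B (20.2 to 24.1 CPM) were present in every H9 library. The 28 pairs of H9 libraries each differed by more than sampling noise, at a chi-square of at least 6.07 per gene.

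Azacitidine raised 500 genes and lowered 544 genes in H9 at an adjusted p under 0.05, out of 17801 tested (edgeR's quasi-likelihood F test with Benjamini-Hochberg adjustment, used for each adjusted p below). These are 2.81% and 3.06% of the genes tested, and 3689 genes (20.7%) had an unadjusted p under 0.05. The 6 libraries with azacitidine all lay above both without for 457 of the 500 raised genes, against 14.8% of the genes tested, and all below for 521 of the 544 lowered genes, against 13.1%. At least a 2-fold change was fitted for 143 raised and 101 lowered genes. Fewer cells that express a gene and less of its RNA per cell cannot be told apart in such libraries.

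The called genes were chosen on the mean of the 3 doses, so their medians by dose are a description. Among raised genes the median log2 change against the matched libraries without azacitidine was 0.38 at 50 nM, 0.54 at 125 nM and 0.71 at 250 nM. The lowered genes had medians of -0.44, -0.61 and -0.79 at those doses. A separate fit added the change per doubling of the dose among the 6 libraries with azacitidine. The controls carried no dose in it but shared its romidepsin term and its spread. This fit called 1215 genes higher with dose (6.83% of the genes tested) and 970 lower (5.45%). Of the 500 raised genes, 226 (45.2%) were also called higher with dose, which is 18.6% of the dose-raised genes. Of the 544 lowered genes, 220 (40.4%) were also called lower with dose, which is 22.7% of the dose-lowered genes. The counts of the main comparison rest on both controls: 9 genes were raised and 28 lowered without the romidepsin library, and 10 raised and 47 lowered without the untreated library. The slope counts rest on the lowest and highest doses: without any 1 of the 50 or 250 nM libraries, 465 to 637 genes were higher and 329 to 501 lower.

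The genes raised most, among those with groups that do not overlap, were nearly silent in the controls. MPZL2, an immunoglobulin-family adhesion protein of epithelia and thymus, was at 0 CPM untreated and 0.0882 with romidepsin alone, 0.103, 1.31 and 3.15 at 50, 125 and 250 nM azacitidine, and 0.122, 0.787 and 3.72 at the same doses with romidepsin. It had 2 counts in the controls together, and its ratio was 35.9 with a counting interval of 9.82 to 298 (95%, exact Poisson, counting error only, adjusted p of the fit = 0.0392). TNFRSF4, the costimulatory receptor OX40 of activated T cells, was at 0.0773 CPM untreated and 0 with romidepsin alone, 0.414, 1.15 and 2.75 at 50, 125 and 250 nM azacitidine, and 0.325, 0.322 and 1.99 at the same doses with romidepsin. Its ratio was 27.7 (7.55 to 230.2) from 2 control counts, with an adjusted p of 0.0134. Both genes were highest at 250 nM with and without romidepsin. TYROBP, the signalling adaptor of natural killer cell and myeloid receptors, ran from 0 CPM untreated and 0.0882 with romidepsin alone to 1.92 and 1.90 CPM at 250 nM without and with romidepsin (ratio 26.3, 7.16 to 219, adjusted p = 0.0465).

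Epithelial genes were among them. KRT8, a keratin of simple epithelia, was at 0.695 CPM untreated and 0.573 with romidepsin alone, 3.24, 6.97 and 9.88 at 50, 125 and 250 nM azacitidine, and 2.11, 8.27 and 23.4 at the same doses with romidepsin. The 6 values with azacitidine were all above both controls and rose in dose order with and without romidepsin. The fitted log2 effect was 3.75 ± 0.82 (SE of the fit, here and below), a 13.5-fold rise (adjusted p = 0.00832). C1orf106, a regulator of epithelial junctions, rose by 4.50 ± 0.86 from 0.425 and 0.397 CPM to between 2.55 and 31.2 CPM. KRT5, a keratin of basal epithelia, had 3 counts in the controls and was at 0.325 to 1.07 CPM with azacitidine (ratio 10.1, 3.36 to 49.8, adjusted p = 0.0152). S100A14, a calcium-binding protein of epithelia, was at 0.193 and 0.309 CPM in the controls and at 0.730 to 6.11 CPM with azacitidine (log2 3.33 ± 0.81). Of 11 tested epithelial markers, KRT8 and KRT5 were called, and the summed level of the 14-marker list was 236.8 to 257.5 CPM without azacitidine and 260.1 to 342.4 CPM with it, with KRT19 at 0 in all 8 libraries. The part of such a cell type in these changes was not tested.

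The other most raised genes spanned several functions. AGTRAP, which promotes internalisation of the angiotensin II receptor, rose from 0.618 and 0.882 CPM to between 1.30 and 14.5 CPM (log2 3.34 ± 0.69, adjusted p = 0.00574). PTGIR, the prostacyclin receptor, rose by 3.25 ± 0.81, and PGF, a growth factor of the VEGF family, by 2.88 ± 0.80. SMPDL3B, a membrane phosphodiesterase, rose by 3.70 ± 0.81 and TNNC2, a troponin of fast muscle, by 3.05 ± 0.88. EBI3, a subunit of the cytokines IL-27 and IL-35, rose by 2.80 ± 0.51 with no dose grading: it was at 0.193 CPM untreated and 0.838 with romidepsin alone, 1.69, 2.14 and 1.74 at 50, 125 and 250 nM azacitidine, and 3.73, 6.76 and 4.74 at the same doses with romidepsin. Its 50 nM values were already above both controls, and its change per doubling was 0.11 ± 0.15 (adjusted p = 0.709). The uncharacterised loci LOC100506913 and LOC100506190 complete the 14 genes, each with a log2 effect of 2.79. Leaving out either control library ended the call for 84 (without untreated) and 81 (without romidepsin alone) of the 93 genes named here that were called for this comparison, these 14 among them, while their direction held. In limma-voom 9 of the 14 did not pass (MPZL2, TYROBP, KRT8, AGTRAP, PTGIR, TNNC2, PGF and both loci), and KRT5 did not pass in DESeq2.

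**Figure D1:**
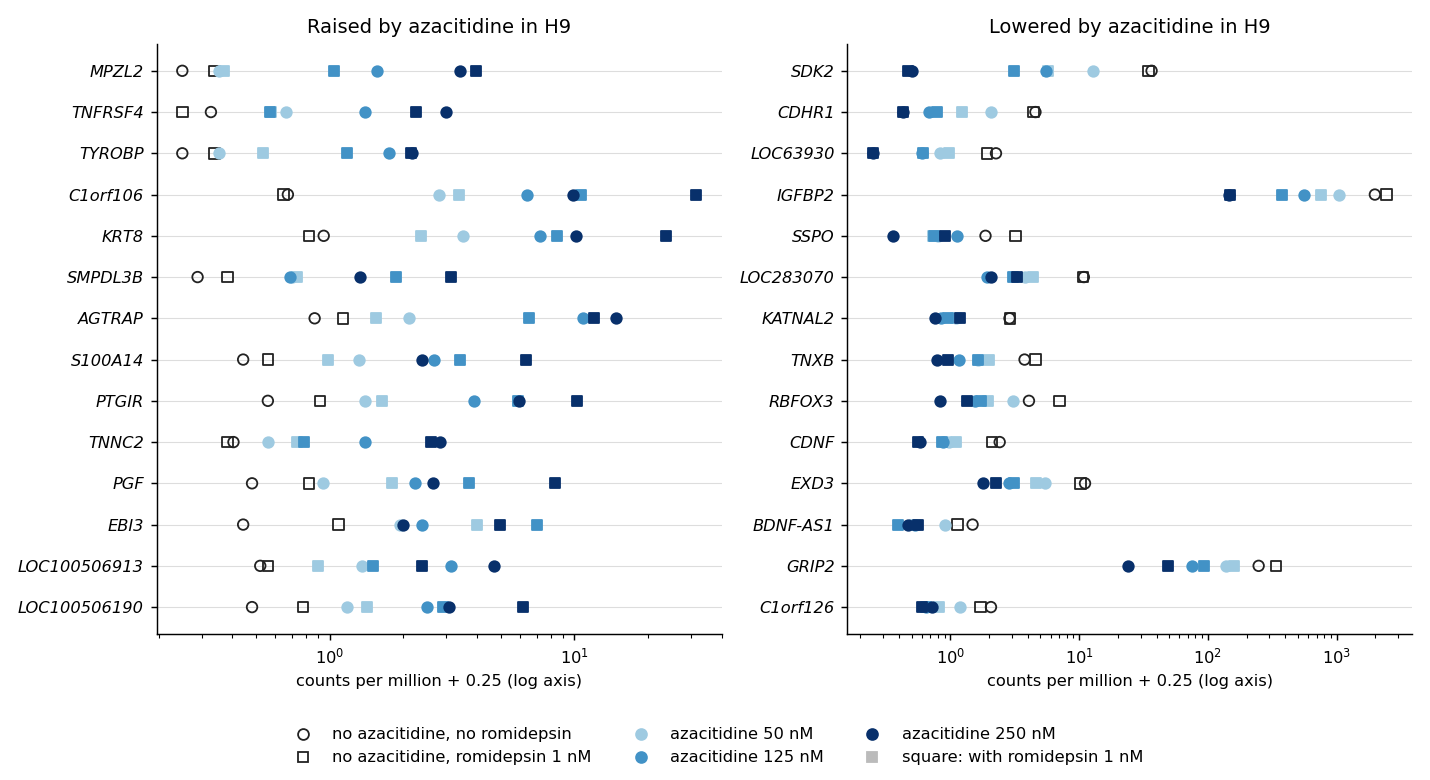
CPM plus 0.25, on a log axis, of the 14 most raised and 14 most lowered genes in 8 H9 libraries, with open symbols for the 2 libraries without azacitidine, filled symbols darker with dose and squares for romidepsin. In each row the filled symbols all lie on 1 side of the open ones, as the rule for choosing these genes requires, and the darkest symbols are in most rows the farthest away.

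Several of the most lowered genes were well expressed before treatment. IGFBP2, a secreted protein that binds insulin-like growth factors, was at 1983 CPM untreated and 2453 with romidepsin alone, 1036, 558 and 147 at 50, 125 and 250 nM azacitidine, and 754, 374 and 149 at the same doses with romidepsin. The values fell at every dose step in both arms, and the fitted effect was -2.17 ± 0.49 (adjusted p = 0.0104), with -1.08 ± 0.14 per doubling. SDK2, an adhesion protein of synapses, was at 36.3 CPM untreated and 34.3 with romidepsin alone, 12.7, 5.30 and 0.253 at 50, 125 and 250 nM azacitidine, and 5.44, 2.86 and 0.221 at the same doses with romidepsin. It fell by 3.11 ± 0.77 on the log2 scale (adjusted p = 0.0181) and was the most lowered gene by this rule. GRIP2, a scaffold for glutamate receptors, fell from 248 and 337 CPM to between 23.7 and 159.7 CPM (log2 -1.70 ± 0.36, adjusted p = 0.00725). SDK2, IGFBP2 and GRIP2 passed the test in edgeR and in limma-voom but not in DESeq2.

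Lower-level genes in the same set included CDHR1, a photoreceptor cadherin (log2 -2.64 ± 0.67), TNXB, an extracellular matrix glycoprotein (-1.81 ± 0.42), RBFOX3, the neuronal splicing factor known as NeuN (-1.80 ± 0.37), SSPO, a secreted glycoprotein of the brain (-2.07 ± 0.54), CDNF, a neurotrophic factor (-1.79 ± 0.38) and EXD3, a predicted exonuclease (-1.75 ± 0.38). KATNAL2, a katanin-like microtubule-severing protein, behaved as a step: it was at 2.63 CPM untreated and 2.65 with romidepsin alone, 0.862, 0.594 and 0.507 at 50, 125 and 250 nM azacitidine, and 0.852, 0.716 and 0.930 at the same doses with romidepsin. The 6 azacitidine values lay close together, all far below both controls, with no called change per doubling (-0.14 ± 0.13, adjusted p = 0.565). The noncoding locus LOC283070 had the same shape (10.6 and 10.5 CPM without azacitidine, 1.66 to 4.14 CPM with it, log2 -1.92 ± 0.24, adjusted p = 3.1e-05). The calls for KATNAL2 and LOC283070 held without either control. LOC63930, C1orf126 and BDNF-AS1, antisense to the neurotrophin gene BDNF, complete the 14, with log2 effects of -2.42, -1.65 and -1.74. The strand setting of the counting is not given in the sources used here, so reads of an antisense gene and its partner cannot be told apart.

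The lowered genes were long. In the GENCODE release 29 annotation of GRCh38, the lowered genes had a median span from first to last base of 75.3 kb (492 of 544 matched by symbol), against 18.0 kb for the raised genes (483 of 500) and 30.1 kb for all genes tested (16010 of 17801). Spans over 100 kb belonged to 45.1% of the lowered, 6.83% of the raised and 19.1% of the tested genes. Among genes above 1 CPM in an H9 library, the share lowered went from 1.77% of 2655 genes up to 10 kb through 3.34% of 4137 genes of 30 to 100 kb to 13.1% of 556 genes of 200 to 400 kb and 26.6% of 192 genes over 400 kb. The share raised went from 4.60% up to 10 kb to 0.521% over 400 kb. Median log2 effects over the same bins were 0.074, 0.069, 0.015, -0.069, -0.144 and -0.329.

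This gradient with length was present at the lowest dose and in both arms. For genes over 400 kb the median log2 change was -0.285 at 50 nM, -0.360 at 125 nM and -0.321 at 250 nM, and it was -0.320 without romidepsin and -0.336 with it. The median change per doubling of the dose in that bin was -0.020. Both control libraries stood above the mean of the 8 libraries for these genes, by a median of 0.22 (untreated) and 0.26 (romidepsin alone), and the 6 others were at -0.13 to -0.03. The share lowered among genes over 400 kb was 10% at a mean of 1 to 10 CPM (90 genes), 45.9% at 10 to 50 CPM (61 genes) and 53.8% above 50 CPM (26 genes). In the other lines the median azacitidine effect over 400 kb was -0.126 in HH, -0.077 in TLOm1 and 0.002 in PF382, where TLOm1 (adult T-cell leukemia) and PF382 (T-cell acute lymphoblastic leukemia) received azacitidine at 125, 250 and 500 nM. The share lowered went up with span in those lines too, from 1.51% up to 10 kb to 4.17% over 400 kb in HH (1.80% of all genes), from 2.30% to 9.38% in PF382 (2.39% of all genes) and from 5.61% to 17.2% in TLOm1 (7.68% of all genes). Spans over 100 kb belonged to 31.9%, 30.5% and 25.8% of the genes lowered in HH, PF382 and TLOm1.

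Long genes were among those with the smallest p-values of the comparison, and 6 of them are named here after their values were seen. CUX1, a homeobox transcription factor with a span of 468 kb, was at 203 CPM untreated and 193 with romidepsin alone, 81.3, 70.3 and 73.2 at 50, 125 and 250 nM azacitidine, and 85.0, 76.0 and 82.8 at the same doses with romidepsin. The 6 values with azacitidine lay within a narrow band far below both controls, with a log2 effect of -1.35 ± 0.15 (adjusted p = 1.13e-05) and -0.05 ± 0.04 per doubling (adjusted p = 0.475). WWOX, an oxidoreductase gene at a common fragile site, spans 1113 kb and fell by 1.08 ± 0.13 on the log2 scale (adjusted p = 2.13e-05). CMIP, a signalling adaptor of T cells (267 kb), was at 158 and 156 CPM in the controls and at 80.8 to 89.9 CPM with azacitidine (log2 -0.89 ± 0.10). EXOC4 of the exocyst (814 kb), GMDS of fucose synthesis (622 kb) and DIS3L2, an RNA exonuclease (383 kb), had effects of -0.70 ± 0.08, -0.81 ± 0.10 and -0.63 ± 0.08. All 6 calls held without either control library. Only GMDS among them was called for the dose slope (-0.16 ± 0.04 per doubling, adjusted p = 0.00712).

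**Figure D2:**
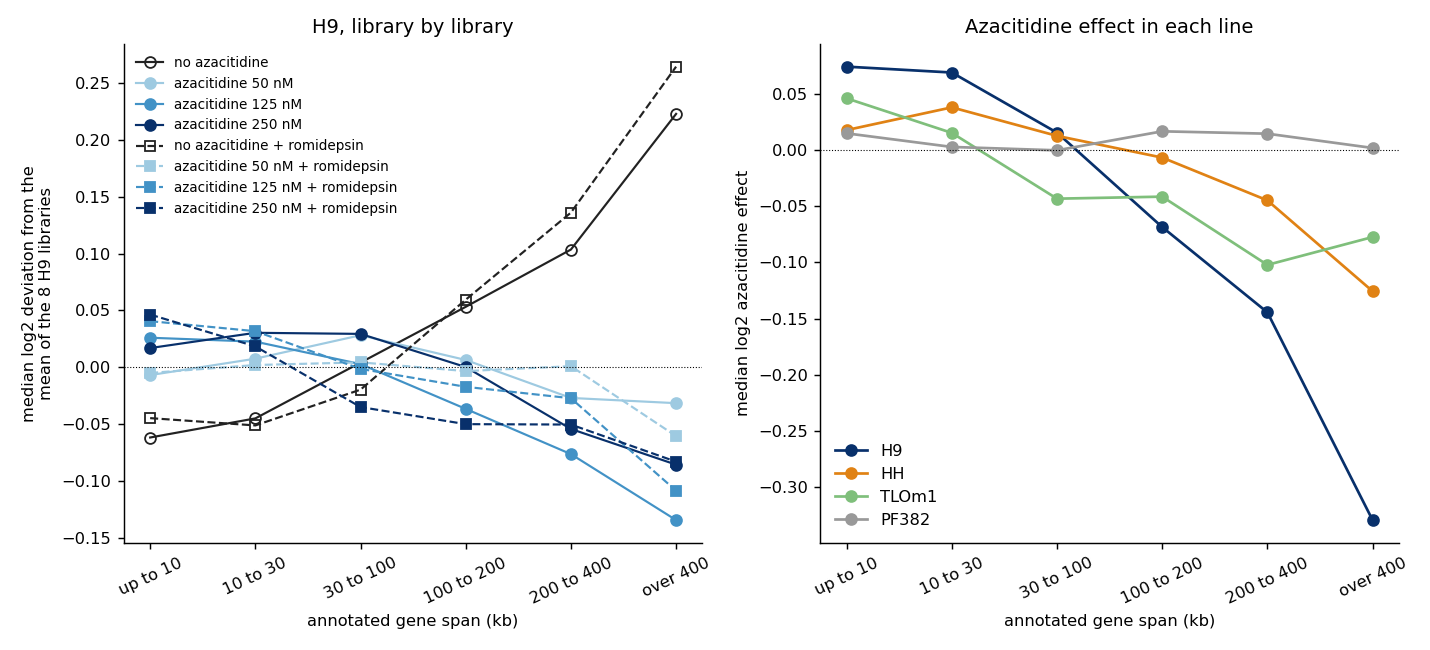
Gene span in bins (kb) against, on the left, the median log2 deviation of each H9 library from the mean of the 8 libraries and, on the right, the median log2 azacitidine effect in each cell line, for genes above 1 CPM in an H9 library. The open symbols (no azacitidine) rise to 0.22 and 0.26 over 400 kb while the filled ones fall, and the H9 line on the right ends at -0.329.

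Of 17 tested MHC class II genes, 9 rose and 0 fell, against 2.81% of all genes, and their median log2 effect was 0.94 against 0.01 over all genes tested. CIITA, the coactivator that turns the family on, was at 8.27 CPM untreated and 18.4 with romidepsin alone, 19, 26.4 and 25.9 at 50, 125 and 250 nM azacitidine, and 24.3, 35.1 and 32.7 at the same doses with romidepsin. Its 6 values with azacitidine were all above both controls, and the log2 effect was 1.09 ± 0.24 (adjusted p = 0.0093). HLA-DRA, the chain shared by HLA-DR molecules, was at 6.91 CPM untreated and 20.5 with romidepsin alone, 25.8, 33.6 and 42.7 at 50, 125 and 250 nM azacitidine, and 38.6, 57.2 and 71.3 at the same doses with romidepsin. It rose in dose order in both arms, with a log2 effect of 1.81 ± 0.22 (adjusted p = 2.13e-05) and 0.35 ± 0.06 per doubling (adjusted p = 0.000231), and its call held without either control.

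The romidepsin control was itself the higher of the 2 controls for each of the 9 called genes. For HLA-DPA1, the alpha chain of HLA-DP, it was at 18.8 CPM, above the 15.4 CPM of azacitidine alone at 50 nM, so those groups overlap, while within each arm every azacitidine library was above its control (log2 1.13 ± 0.17, adjusted p = 0.000388). HLA-DPB1, its partner, and HLA-DQA1 overlapped in the same way, and HLA-DPB1 had an effect of 1.03 ± 0.16 (adjusted p = 0.000447). The HLA-DR beta chains HLA-DRB1 and HLA-DRB5 had effects of 1.19 ± 0.20 and 1.29 ± 0.21, the HLA-DQ alpha chains HLA-DQA1 and HLA-DQA2 of 0.59 ± 0.16 and 0.96 ± 0.25, and HLA-DMA, a subunit of the peptide exchange factor, of 1.05 ± 0.18. HLA-DRB1 and HLA-DRB5, and HLA-DQA1 and HLA-DQA2, are near-identical pairs, so reads may be split between them. HLA-DQB1 (log2 -0.01 ± 0.14), HLA-DMB (0.24 ± 0.20), HLA-DOA (-0.23 ± 0.22) and the invariant chain CD74 (0.36 ± 0.17) were not called. Only 4 of the 17, HLA-DRA, HLA-DRB1, HLA-DRB5 and HLA-DPA1, were called higher with dose, against 6.83% of all genes.

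The bases before the starts of 4 of the called genes are shown because class II promoters are known to carry a CCAAT box in inverted orientation, the Y box, beside the X box through which the complex that recruits CIITA is assembled. The sequences are from RefSeq on GRCh38.p14, 120 bases 5′ to 3′ on the gene's strand and ending at the base before the annotated start, with ATTGG, the reverse complement of CCAAT, in capitals.
HLA-DRB1 (chr6:32589849-32589968, minus strand): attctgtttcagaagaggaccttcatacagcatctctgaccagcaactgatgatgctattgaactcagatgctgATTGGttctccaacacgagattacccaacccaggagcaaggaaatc
HLA-DRB5 (chr6:32530288-32530407, minus strand): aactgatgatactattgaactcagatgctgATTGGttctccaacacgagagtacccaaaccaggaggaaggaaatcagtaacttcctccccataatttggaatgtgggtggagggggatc
HLA-DQA1 (chr6:32637286-32637405, plus strand): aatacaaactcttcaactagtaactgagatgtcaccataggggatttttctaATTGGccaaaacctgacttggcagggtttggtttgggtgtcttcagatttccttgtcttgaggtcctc
HLA-DQA2 (chr6:32741271-32741390, plus strand): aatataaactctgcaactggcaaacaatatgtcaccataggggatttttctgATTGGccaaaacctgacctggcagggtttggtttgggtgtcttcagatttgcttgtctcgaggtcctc
The capitals begin 46, 90, 68 and 68 bases before the start in that order, and ATTGG or CCAAT is found on either strand in 32% of the 35116 promoter entries of that table within 250 bases before the start. The HLA-DRB1 and HLA-DRB5 stretches share the bases around ATTGG and differ in their distance to the annotated start. These matches are descriptions of letters, and binding was not measured.

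**Figure D3:**
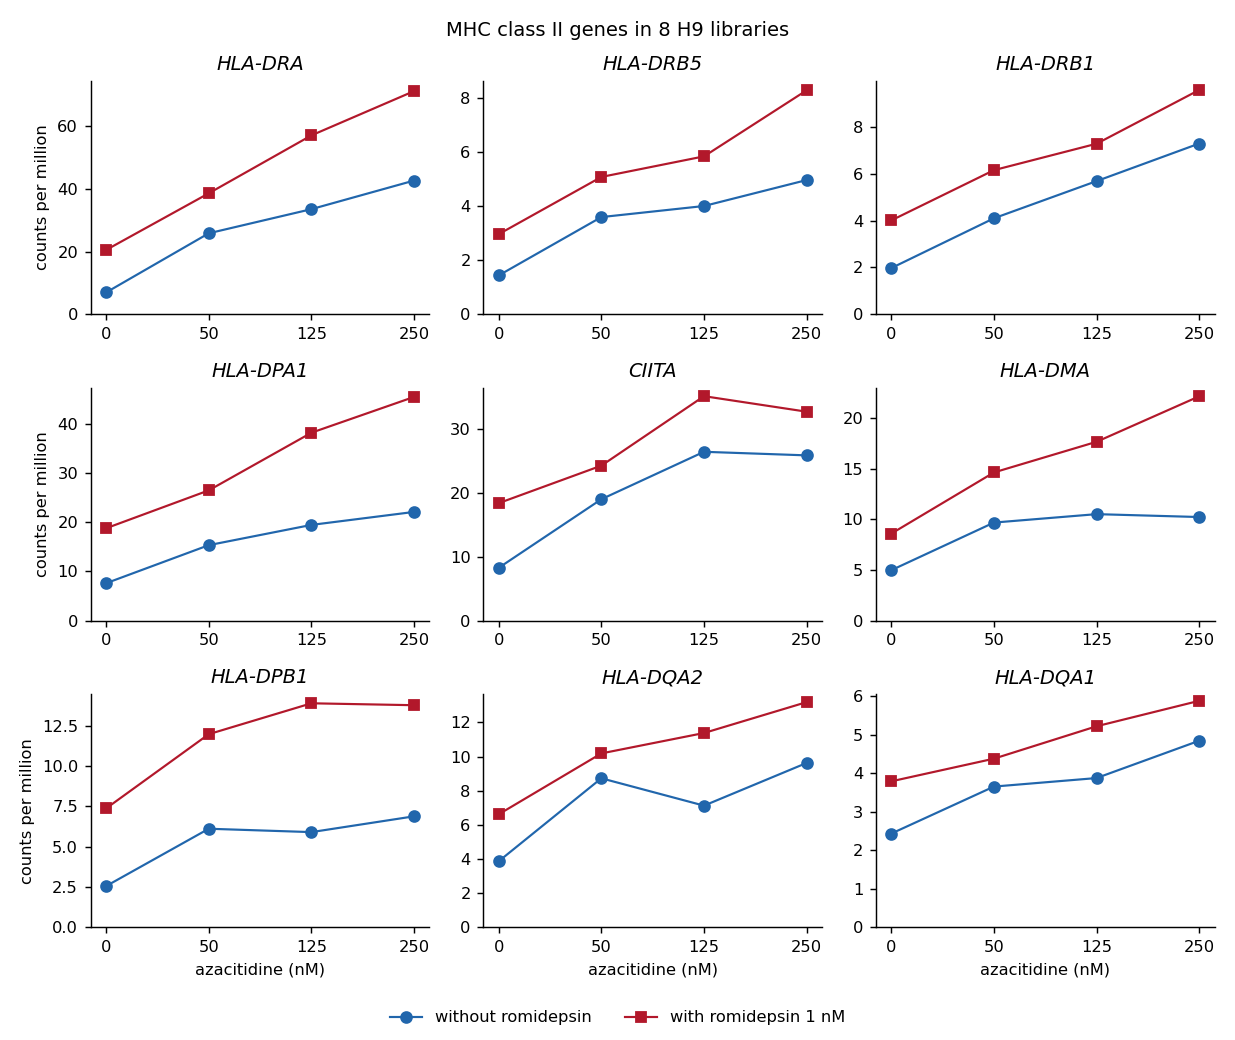
CPM of the 9 called MHC class II genes against azacitidine dose (nM, evenly spaced on the axis), 1 library per point, in blue without and in red with romidepsin. In every panel each azacitidine library lies above the control of its own arm, and the red control lies above the blue one.

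Of 41 tested genes of T-cell identity, 2 were called higher and 4 lower, against 2.81% and 3.06% of all genes, with a median log2 effect of -0.20. PTPRC, which encodes the phosphatase CD45, was at 734 CPM untreated and 779.6 with romidepsin alone, 518, 395 and 303 at 50, 125 and 250 nM azacitidine, and 647, 523 and 366 at the same doses with romidepsin. Each azacitidine library was below both controls, and the effect was -0.73 ± 0.17 (adjusted p = 0.0125). The transcription factors BCL11B (-0.52 ± 0.13), RUNX1 (-0.66 ± 0.19) and TOX (-0.38 ± 0.10) also fell. RUNX1 spans 1217 kb, and its call ended with no filter on low counts and with relative log expression size factors. CD8A, a coreceptor of cytotoxic T cells, rose from 0.386 and 0.838 CPM to between 1.15 and 4.12 CPM (log2 1.81 ± 0.50, adjusted p = 0.0328) and IL2RB, a receptor chain for IL-2 and IL-15, by 0.70 ± 0.18. CD3E (179.8 to 222 CPM with azacitidine, 229 and 255 without), CD4 (12.4 to 27.0 and 14.1 and 21.7 CPM) and CD7 (2.64 to 8.06 and 4.17 and 2.51 CPM) were not called.

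Of 22 tested effector genes of cytotoxic cells, TYROBP, GNLY, GZMA and GZMK rose and 0 fell (median log2 0.44), against 2.81% and 3.06% of all genes, and 6 of the 22 had negative estimates. GNLY, the pore-forming granulysin, was at 14.2 CPM untreated and 20.9 with romidepsin alone, 40.6, 68.9 and 38.2 at 50, 125 and 250 nM azacitidine, and 42.5, 76.8 and 38.8 at the same doses with romidepsin. It peaked at 125 nM in both arms, and the effect was 1.56 ± 0.34 (adjusted p = 0.00854). The granzymes GZMA and GZMK rose by 0.82 ± 0.23 and 0.80 ± 0.18. The summed level of 10 cytotoxic and natural killer markers was 299 to 305 CPM without azacitidine and 441 to 541 CPM with it, while GZMB and KLRD1 were at 0 in 8 of 8 libraries. The part of such cells in the result was not tested. Among 31 cytokine and chemokine genes, XCL1 (1.82 ± 0.52), IL15 (1.76 ± 0.53) and CXCL10 (1.55 ± 0.34) rose, and 0 fell, against 2.81% and 3.06% of all genes. XCL1, a chemoattractant for cross-presenting dendritic cells, was at 2.16 and 5.12 CPM in the controls and at 5.90 to 23.3 CPM with azacitidine. CD8A, LAG3 and IL15 did not pass in limma-voom. The call of IL15, with 7 control counts, also ended in DESeq2, with no filter on low counts and with relative log expression size factors.

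Checkpoint and costimulatory molecules gave 3 higher and 1 lower of 30 tested, against 2.81% and 3.06% of all genes (median log2 0.19). Beside TNFRSF4, these were LAG3, an inhibitory receptor that binds MHC class II, at 1.12 CPM untreated and 1.10 with romidepsin alone, 1.38, 3.28 and 2.5 at 50, 125 and 250 nM azacitidine, and 2.27, 3.01 and 4.16 at the same doses with romidepsin. The azacitidine libraries were above both controls, and the effect was 1.29 ± 0.36 (adjusted p = 0.0337). CD70, the ligand of CD27, rose from 19.5 and 22.1 CPM to between 32.7 and 59.5 CPM (log2 1.10 ± 0.20, adjusted p = 0.00204), and TNFRSF14, the receptor HVEM, fell by 0.59 ± 0.16 on the log2 scale. In the NF-kB list of 22 genes, EBI3 and the adhesion molecule ICAM1 (0.62 ± 0.16) rose and TNFAIP3, a brake on NF-kB signalling (-0.66 ± 0.14), fell.

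Metabolic genes fell with dose. Of 47 tested genes of the hypoxia response and glycolysis, 34 were called lower and 1 higher per doubling, against 5.45% and 6.83% of all genes, and the median slope was -0.38 log2 per doubling, against 0 over all genes. At any dose together, 3 of the 47 were called lower (HK1, GPI and PGK1) and 0 higher, with a median log2 effect of -0.53. LDHA, which converts pyruvate to lactate, was at 2152 CPM untreated and 2079 with romidepsin alone, 2275, 1704 and 1022 at 50, 125 and 250 nM azacitidine, and 1760.2, 1308 and 832 at the same doses with romidepsin. The 50 nM library without romidepsin was above both controls and the 250 nM libraries were the lowest of the 8, with a slope of -0.47 ± 0.07 (adjusted p = 0.000255). PFKFB4, a regulator of glycolytic flux, was at 179 CPM untreated and 175 with romidepsin alone, 153, 96.3 and 8.58 at 50, 125 and 250 nM azacitidine, and 99.6, 46.6 and 7.48 at the same doses with romidepsin. The 250 nM libraries were again the lowest of the 8, and the slope was -1.49 ± 0.36 (adjusted p = 0.0108), a call that ended with H9 libraries alone or without either 250 nM library.

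Other members fell alike. BNIP3, a mitophagy receptor induced by hypoxia, had 176 and 179 CPM in the controls and 46.9 and 37.4 CPM at 250 nM (slope -0.89 ± 0.20). MIR210HG, host of the hypoxia-induced miR-210, went from 27.6 and 28.5 CPM to 2.75 and 0.708 CPM (slope -1.25 ± 0.39, adjusted p = 0.048), a call that ended with H9 libraries alone, with no filter on low counts, without PF382 or TLOm1, and without any 1 H9 library other than that with 125 nM azacitidine alone. PDK1, which diverts pyruvate from mitochondria, had a slope of -0.75 ± 0.15, the glucose transporter gene SLC2A1 of -0.28 ± 0.06 and the growth factor gene VEGFA of -0.27 ± 0.07. CA12 was the member called higher, and it did not exceed 0.354 CPM in any H9 library. Fitted at 250 nM alone, a comparison added after the data were seen, 38 of the 47 were lower and 1 higher (11.4% and 13.5% of all genes) with a median of -1.09. Over all doses, H9 had 3 of the 47 lower and 0 higher (3.06% and 2.81% of all genes). HH had 1 lower and 2 higher (median -0.42), against 1.80% and 4.07% of all genes. PF382 had 23 lower and 0 higher (median -0.80), and TLOm1 had 1 lower and 3 higher (median -0.04). The difference between H9 and HH was called for 1 of the 47, near the 3.01% of all genes.

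Cholesterol synthesis and uptake followed the same course. Of 24 tested genes 20 were called lower per doubling and 0 higher, against 5.45% and 6.83% of all genes (median -0.25), and 3, LSS, MVD and PMVK, were called lower at any dose together (median -0.48). HMGCS1, an early enzyme of the pathway, was at 414 CPM untreated and 359 with romidepsin alone, 379.7, 199.8 and 94.6 at 50, 125 and 250 nM azacitidine, and 267, 154 and 76.9 at the same doses with romidepsin. The values fell at every dose step in both arms, at -0.81 ± 0.13 per doubling (adjusted p = 0.000518). LSS, which closes the sterol ring, was at 259.6 and 205 CPM in the controls and 93.7 to 181 CPM with azacitidine (log2 -0.81 ± 0.16, adjusted p = 0.00538). SQLE (-0.31 ± 0.05), FDFT1 (-0.43 ± 0.05) and INSIG1 (-0.58 ± 0.10) had slopes called lower, as did SCD of fatty acid desaturation (-0.66 ± 0.09). Over all doses 17 of the 24 were called lower in HH (1.80% of all genes), against the 3 in H9 (3.06% of all genes). The difference between the lines was called for 0 of the 24, against 3.01% of all genes, which says little in a list of this size.

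The ATF4 and endoplasmic reticulum stress list went the other way. Of 37 tested genes 19 were called higher per doubling and 0 lower, against 6.83% and 5.45% of all genes (median 0.27), and 4 were called higher at any dose together (MTHFD2, HSPA5, CTH and WARS, median 0.38). HSPA5, the main chaperone of the endoplasmic reticulum, was at 289.9 CPM untreated and 288 with romidepsin alone, 329, 405 and 501 at 50, 125 and 250 nM azacitidine, and 373, 513 and 604 at the same doses with romidepsin. It rose at every dose step in both arms, with an effect of 0.64 ± 0.15 (adjusted p = 0.0103) and 0.28 ± 0.05 per doubling. SLC7A11, the cystine importer, went from 1.00 and 1.01 CPM to 4.38 and 6.60 CPM (slope 0.89 ± 0.19, adjusted p = 0.00427). ATF4 itself had a slope of 0.17 ± 0.05, ASNS, asparagine synthetase, of 0.31 ± 0.07 and DDIT3, the transcription factor CHOP, of 0.31 ± 0.09. Over all doses 0 of the 37 were called in HH in either direction (4.07% of all genes higher and 1.80% lower), against the 4 higher in H9 (2.81% of all genes). The difference between the lines was called for 1 of the 37, near the 3.01% of all genes.

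**Figure D4:**
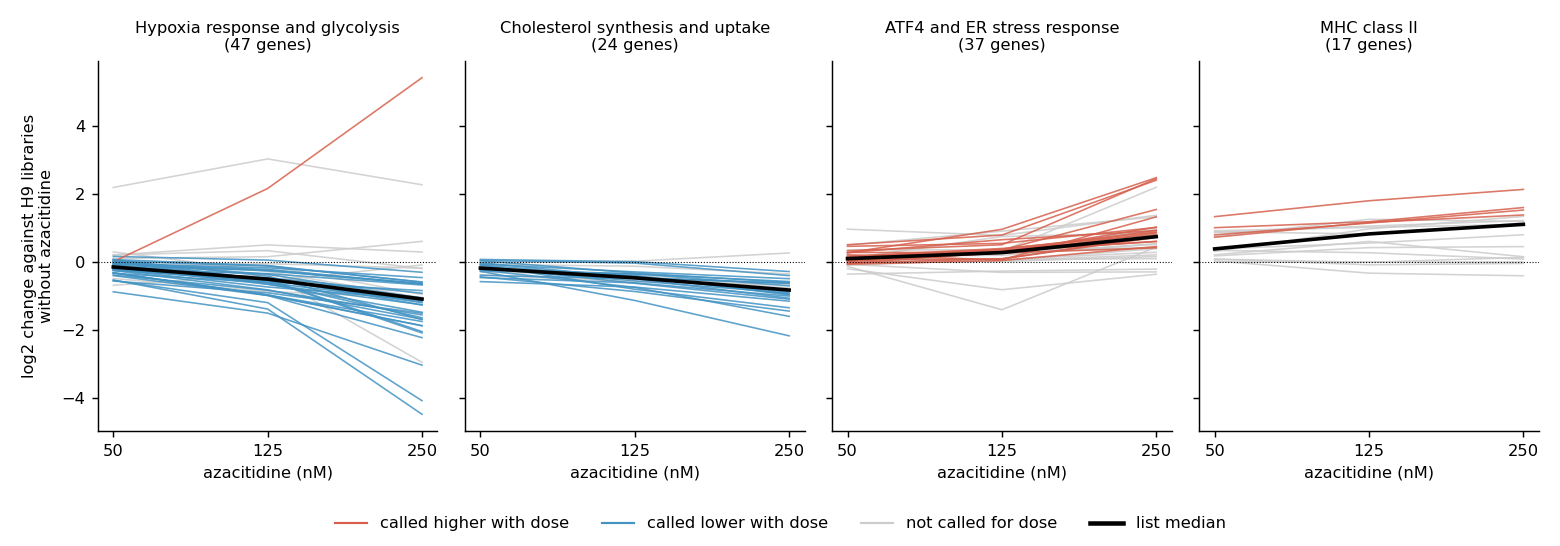
Log2 change of each tested member of 4 gene lists at 50, 125 and 250 nM azacitidine (evenly spaced) against the H9 libraries without azacitidine, in red or blue where the dose slope was called higher or lower, in grey otherwise, with the list median in black. The black line falls to -1.09 for hypoxia and glycolysis and to -0.83 for cholesterol, and rises to 0.75 for the ATF4 list and 1.11 for MHC class II.

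Some germline genes rose with dose. Of 18 tested MAGE-A, MAGE-B and MAGE-C genes 5 were called higher per doubling, of 32 other X-linked cancer testis genes 2 and of 47 autosomal germline genes 4, with 0 lower, against 6.83% and 5.45% of all genes, so the X-linked and autosomal lists were near the share of all genes. In H9 6 of the 18, 3 of the 32 and 24 of the 47 reached 10 counts in a library, and the rest passed the filter through other lines, so that 0 calls over all doses in the 3 lists say little of them. Of the autosomal genes 17 already had 10 counts in the untreated library, and their list summed to 388 CPM untreated and 439 CPM at 250 nM azacitidine. MAGEC1, a cancer testis antigen of the X chromosome, was at 0 CPM untreated and 0.0441 with romidepsin alone, 0, 0.119 and 2.82 at 50, 125 and 250 nM azacitidine, and 0, 0 and 0.974 at the same doses with romidepsin. Only the 250 nM libraries held more than 3 counts (adjusted p of the slope = 4.83e-07). MAGEA4, a target of T-cell therapies, was at 0 in 6 of the 8 libraries and at 0.398 and 0.310 CPM at 250 nM (adjusted p = 0.00373). MAGEC2 (0.398 and 0.221 CPM), MAGEB6 (1.41 and 0.930 CPM) and MAGEB2 (0.470 and 0.177 CPM) were also highest at 250 nM, and the call of MAGEC2 did not hold in DESeq2. Slopes of genes at 0 in most libraries depend on the prior count of the fit and are not given as fold changes, and reads may be split between the closely similar members of the MAGE family.

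BRDT, the testis member of the BET family of bromodomain proteins, was the germline gene with the highest level at 250 nM among those called, after graded values from 50 nM on: it was at 0.0773 CPM untreated and 0.0441 with romidepsin alone, 0.207, 1.19 and 4.99 at 50, 125 and 250 nM azacitidine, and 0.365, 2.40 and 5.84 at the same doses with romidepsin. The slope was 1.78 ± 0.20 per doubling (adjusted p = 3.95e-06). PAGE5 reached 4.45 and 2.04 CPM and PRAME, a repressor of retinoic acid signalling, 2.71 and 5.09 CPM at 250 nM. Of the 18 MAGE genes tested, 1 had at least 10 counts in an H9 control: MAGEB1, at 35.0 and 34.4 CPM, which was not called (slope 0.32 ± 0.11, adjusted p = 0.0674). FAM133A, CLEC2L, B3GNT3, ABCA13 and LOC100129520, the other genes with the steepest fitted rises, were below 1 CPM in every H9 library.

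The bases before the starts of the 5 MAGE genes are shown because MAGE promoters are known to hold sites for ETS-family factors that include a CG dinucleotide, the unit of DNA methylation. The sequences are from RefSeq on GRCh38.p14, 120 bases 5′ to 3′ on the gene's strand and ending at the base before the annotated start, the first listed of 5 for MAGEA4. Capitals mark CCGGATG or CCGGAAG, letters that were chosen after the sequences were seen.
MAGEA4 (chrX:151912354-151912473, plus strand): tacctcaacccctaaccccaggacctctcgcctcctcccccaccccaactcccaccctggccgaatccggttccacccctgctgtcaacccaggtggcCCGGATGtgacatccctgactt
MAGEB2 (chrX:30215443-30215562, plus strand): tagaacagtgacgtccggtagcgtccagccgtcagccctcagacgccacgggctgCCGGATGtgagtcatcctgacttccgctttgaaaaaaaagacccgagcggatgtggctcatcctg
MAGEB6 (chrX:26192320-26192439, plus strand): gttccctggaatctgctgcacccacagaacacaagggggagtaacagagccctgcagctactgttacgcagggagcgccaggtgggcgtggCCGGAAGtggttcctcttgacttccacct
MAGEC1 (chrX:141903774-141903893, plus strand): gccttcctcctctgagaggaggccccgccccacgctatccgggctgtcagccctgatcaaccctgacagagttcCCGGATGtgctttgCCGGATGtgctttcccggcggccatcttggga
MAGEC2 (chrX:142205291-142205410, minus strand): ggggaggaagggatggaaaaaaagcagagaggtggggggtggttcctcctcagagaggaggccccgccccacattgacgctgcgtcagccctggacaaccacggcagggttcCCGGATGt
CCGGATG, searched on both strands of the 250 bases before the start, was found in 4 of the 5 (MAGEA4, MAGEB2, MAGEC1 and MAGEC2) and in 2.13% of the 35116 promoter entries of the table. CCGGAAG was found in MAGEB6 and in 8.52% of entries. These genes belong to 1 family and share ancestry, and neither methylation nor binding was measured.

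DNMT1, the maintenance methyltransferase that azacitidine traps, was at 956 and 966 CPM in the controls and 884 to 985 CPM with azacitidine (log2 -0.03 ± 0.08, adjusted p = 0.906). UHRF1, its recruiter, and DNMT3B, a de novo methyltransferase, were called higher per doubling (0.35 ± 0.05 and 0.44 ± 0.10) but not over all doses (0.48 ± 0.20 and 0.86 ± 0.33). DNMT3A (0.20 ± 0.22) was called in neither test, and TET1, which oxidises methylcytosine, was called lower per doubling (-0.27 ± 0.08). Of 23 tested genes of this list, the base excision enzyme TDG (0.41 ± 0.09), the cytidine deaminase APOBEC3B (1.11 ± 0.28) and the chromatin remodeller HELLS (0.39 ± 0.08) rose. APOBEC3B was at 2.24 and 1.68 CPM in the controls and at 3.79 to 4.51 CPM with azacitidine, and it did not pass in limma-voom.

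Of 30 tested genes of azacitidine uptake and nucleotide metabolism, 1 (UPP1) was called higher over all doses and 0 lower. This is near the 2.81% and 3.06% of all genes. UPP1, a uridine phosphorylase of pyrimidine salvage, was at 1.12 CPM untreated and 1.63 with romidepsin alone, 1.72, 3.36 and 7.27 at 50, 125 and 250 nM azacitidine, and 2.56, 5.87 and 10.7 at the same doses with romidepsin. It rose in dose order in both arms, by 1.92 ± 0.52 over all doses (adjusted p = 0.0277) and 0.89 ± 0.10 per doubling. Its call over all doses did not hold in limma-voom. The uridine-cytidine kinases UCK1 (0.18 ± 0.10) and UCK2 (0.25 ± 0.17), the deoxycytidine kinase DCK (-0.01 ± 0.15) and the nucleoside transporter SLC29A1 (0.43 ± 0.19) were not called, although SLC29A1 was called higher per doubling (0.18 ± 0.05). CDA, the deaminase that inactivates azacitidine, was at 0 in both controls and at or below 0.354 CPM with azacitidine. Of 13 efflux transporters, ABCC1 fell by 0.36 ± 0.07, with 277 to 305 CPM against 381 and 363 CPM.

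Histone deacetylase genes, some of which encode the targets of romidepsin, gave 1 higher and 4 lower of 17 tested, against 2.81% and 3.06% of all genes (median log2 -0.01). HDAC4 was at 47.4 CPM untreated and 44.2 with romidepsin alone, 28, 20.8 and 12 at 50, 125 and 250 nM azacitidine, and 24.7, 20.7 and 12.6 at the same doses with romidepsin. It fell in dose order in both arms, by 1.21 ± 0.22 on the log2 scale (adjusted p = 0.00204), and spans 353 kb. HDAC7 (-0.50 ± 0.13), SIRT5 (-0.48 ± 0.15) and HDAC6 (-0.29 ± 0.08) were lower and HDAC2 (0.28 ± 0.08) higher. In other lists, the metallothionein gene MT2A (1.03 ± 0.19) and the neuronal tubulin gene TUBB3 (1.16 ± 0.24) rose, and HOXB3 (-0.73 ± 0.16) fell. Of 27 tested p53 targets, TP53I3 (1.05 ± 0.22) and C12orf5 (0.61 ± 0.15) rose and the DNA polymerase gene POLH (-0.31 ± 0.09) fell.

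Of 55 tested interferon-stimulated genes, 0 were called over all doses in either direction (median log2 0.12), against 2.81% and 3.06% of all genes. The counts per doubling were near the shares of all genes (6.83% higher and 5.45% lower). Per doubling 3 were called higher (IRF7, IRF9 and CMPK2) and 5 lower, among them IFIH1 (-0.15 ± 0.04), GBP2 (-0.41 ± 0.08) and the near-identical IFITM1 (-0.28 ± 0.07) and IFITM2 (-0.16 ± 0.05). IRF7 was graded upward, from 7.84 and 6.88 CPM to 21.5 and 20.7 CPM at 250 nM (slope 0.35 ± 0.10, adjusted p = 0.0312). Of 53 tested cell cycle genes, 0 were called over all doses, and 5 were called higher and 1 lower per doubling. The proliferation marker MKI67 was at 1477 to 1849 CPM with azacitidine and 1666 and 1613 CPM without. The lists of CDK inhibitors (7 tested), clustered histone genes (55), imprinted genes (20) and protocadherins (43) also had 0 calls over all doses. With 2.81% and 3.06% of all genes called, 0 calls in lists of this size say little. Per doubling, the CDK inhibitors had 0 higher and 1 lower and the histone genes 0 and 4. The imprinted genes had 1 and 3 and the protocadherins 1 and 0, against 6.83% and 5.45% of all genes.

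Whether romidepsin altered the azacitidine effect was tested as an interaction, 3 libraries against 1 in each arm. By edgeR, DESeq2 and limma-voom 0 genes were called in either direction, and 113 (0.635% of the genes tested), 78 and 119 genes had an unadjusted p under 0.05. The median log2 effect of the 500 raised genes was 0.52 without romidepsin and 0.58 with it, and that of the 544 lowered genes -0.58 and -0.63. A p that misses the threshold does not show that the effects were alike in a design with 1 control library in each arm. The spread in this fit also held any differences between doses, so the test may miss genes.

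The azacitidine effect differed between H9 and HH for 536 genes (3.01% of those tested), higher in H9 for 176 (0.989%) and lower for 360 (2.02%), by a test of the difference itself. HH had 724 raised (4.07%) and 321 lowered (1.80%) genes of its own. Of the 500 genes raised in H9, 40 were called raised and 4 lowered in HH, and of the 544 lowered, 43 were called lowered and 7 raised. Genes far lower in effect in H9 were mostly ones that H9 already expressed and HH did not. PPT2, a lysosomal thioesterase, was at 17.2 and 14.1 CPM in the H9 controls and 15.6 to 20.4 CPM with azacitidine, and at 0 in both HH controls and 0.0654 to 1.25 CPM in HH with azacitidine (difference -6.77 ± 1.21, adjusted p = 0.00375). L1CAM, a neural adhesion molecule, was at 1009 and 1029 CPM in the H9 controls and at 0.131 and 0 CPM in those of HH, where azacitidine brought it to 0.132 to 7.03 CPM. LIF, a cytokine of the IL-6 family, MPP2, STXBP6, C11orf45 and GGT7 had the same pattern, with 0 or 1 count in each HH control. Fitted effects of such genes in HH depend on the prior count and are no bounds.

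Genes higher in effect in H9 included immune genes. GZMK rose in H9 by 0.80 ± 0.18 and had a fitted fall in HH of 1.93 ± 0.43 (difference 2.73 ± 0.47, adjusted p = 0.00375). HH barely expressed it, at 0.305 and 0.289 CPM (7 and 6 counts) in the controls and 0.0421 to 0.0982 CPM with azacitidine. The fall in HH therefore rests on few counts. TNFRSF9, the costimulatory receptor 4-1BB, was at 10.6 and 14.2 CPM in the H9 controls and 16.7 to 28.2 CPM with azacitidine, and fell in HH from 8.33 and 2.46 CPM to between 0.546 and 2.81 CPM (difference 2.79 ± 0.60, adjusted p = 0.016). EBI3 rose in H9 and was at 17.8 and 12.6 CPM in the HH controls and 12.5 to 22.5 CPM with azacitidine there (difference 2.60 ± 0.60). AOAH, an enzyme that inactivates lipopolysaccharide, was at 0 in both H9 controls and at 0.119 to 0.266 CPM with azacitidine, at least 2.78-fold higher against a floor of 3 counts over the 2 controls together. Of the 17 MHC class II genes, 6 were called higher in effect in H9 than in HH, against 0.989% of all genes, with HLA-DRA the largest (difference 1.54 ± 0.27, adjusted p = 0.00372). In HH 0 of the 17 were called over all doses, against 4.07% of all genes higher and 1.80% lower. HH already held the family far above H9: its controls were at 567 and 519 CPM of HLA-DRA and 342 and 289 CPM of HLA-DRB1. Of the 39 genes chosen for naming and called for this difference, 29 still passed in limma-voom and 33 in DESeq2. Those lost in limma-voom included EBI3, GGT7, C11orf45, LIF, L1CAM, HLA-DRB1, HLA-DRB5 and HLA-DPA1. Those lost in DESeq2 included AOAH, KRT5, SLAMF8 and MUC12. Of the 6 long genes named above, CUX1, CMIP, DIS3L2 and EXOC4 fell more in H9 (differences -1.29, -1.03, -0.57 and -0.48), and the differences of WWOX (-0.65) and GMDS (-0.48) were not called. Either control library of either line decides many of these counts: 7 to 25 genes were higher and 32 to 80 lower when 1 of the 4 was left out.

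**Figure D5:**
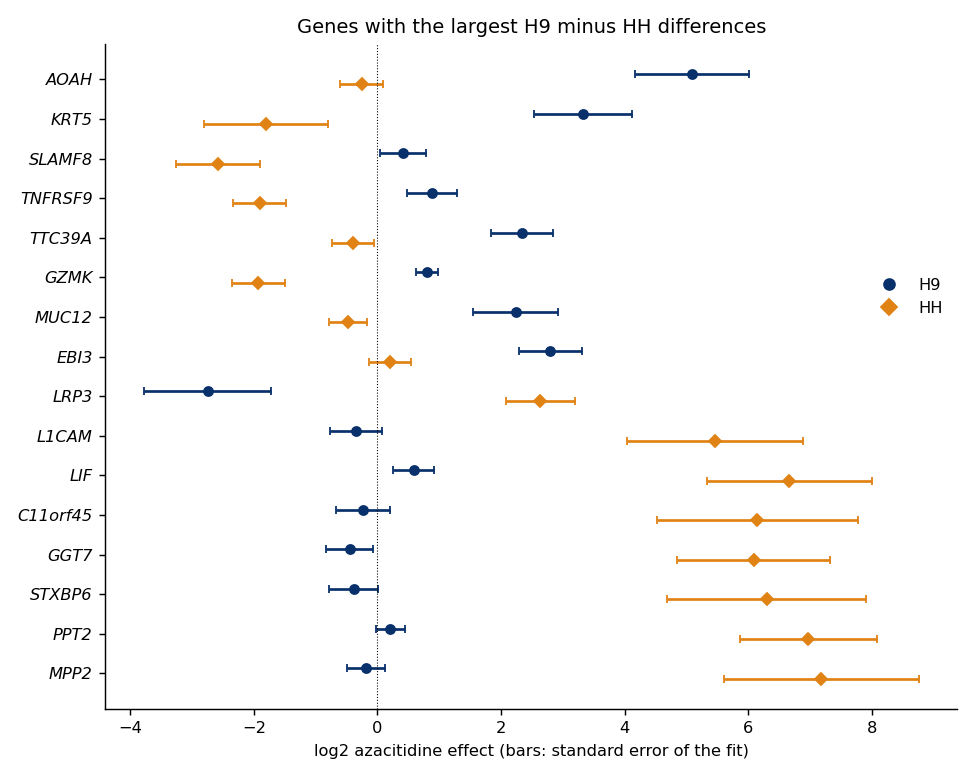
Log2 azacitidine effect, with the standard error of the fit as bars, in H9 (circles) and HH (diamonds) for the 8 genes with the largest called differences in each direction. In 7 of the lower 8 rows the H9 circle is within 1 of 0 while the diamond lies between 5 and 8. LRP3 differs, with the circle at -2.75 and the diamond at 2.64.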

How the data were processed

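Polyadenylated RNA libraries of 8 H9 and 24 other T-cell line samples were sequenced, per the labels, which also name ribosomal RNA depletion. The authors deposited raw counts for 25559 gene symbols in each library. STAR, DESeq2, limma and the build GRCh37.p2 are named in the submitters' processing notes, without versions or roles. The counting tool, and whether it used strand, are not stated in these sources.

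Counts were fitted with edgeR 4.0.16 (TMM scaling, robust quasi-likelihood F test, limma 3.58.1, R 4.3.3) over 32 libraries, with 20 residual degrees of freedom, since each condition has 1 library. Low-count filtering (minimum count 10, minimum total 15) kept 17801 genes, and p-values were Benjamini-Hochberg adjusted over all of them, with a threshold of 0.05. Each line had terms for romidepsin and azacitidine. Further fits added the log2 dose, the interaction with romidepsin, and H9 minus HH. DESeq2 1.42.0, limma-voom, other filters and scalings, and leaving out each library were the alternatives. The script was tested on simulated data. Intervals and floors cover counting error only.

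The members and the 36 gene lists were chosen with earlier results of these data known. Named genes were the 14 most raised and 14 most lowered with groups that do not overlap and a mean of at least 1 CPM, the 8 steepest called slopes and the 8 largest called H9 minus HH differences in each direction, up to 4 called members of each list with the largest change (the most abundant where none was called), and 13 genes of DNA methylation, drug handling and T-cell identity. The 6 long genes, the members named for their dose slope and any other member named were chosen after their values were seen. Spans came from GENCODE release 29 (GRCh38), matched by symbol, since no annotation of the files' build was used here. Some members of the lists are not reported here.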

Additional observations from a re-analysis of the deposited data

Results flagged for a closer look

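The azacitidine effect differed between H9 and HH by a test of the difference itself (edgeR's quasi-likelihood F test), with 176 genes higher in effect in H9 and 360 lower. Differences in log2 effect, H9 minus HH, were 5.35 for AOAH, 5.14 for KRT5, 2.99 for SLAMF8, 2.79 for TNFRSF9, 2.74 for TTC39A, 2.73 for GZMK, 2.71 for MUC12 and 2.60 for EBI3 among genes higher in H9. Among genes lower in H9 they were -7.37 for MPP2, -6.77 for PPT2, -6.68 for STXBP6, -6.54 for GGT7, -6.38 for C11orf45, -6.08 for LIF, -5.80 for L1CAM and -5.39 for LRP3. The values for genes with 0 counts in the controls of a line (AOAH in H9, and MPP2, PPT2, STXBP6, C11orf45 and LIF in HH) depend on the prior count of the fit and are no bounds. The calls of EBI3, GGT7, C11orf45, LIF and L1CAM did not hold in limma-voom, and those of AOAH, KRT5, SLAMF8 and MUC12 did not hold in DESeq2.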

How the results depend on the processing

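Both controls decide the main counts. Leaving out 1 H9 library gave 9 to 746 raised and 28 to 817 lowered genes, with the lowest values without either control. For the dose slope the range was 465 to 1151 higher and 329 to 944 lower, with the lowest values without a 50 or 250 nM library. For H9 against HH it was 7 to 271 higher and 32 to 591 lower, with the lowest values without a control of either line, and for the romidepsin interaction 0 to 0, with no value without an H9 control, where it cannot be estimated. The HH omissions and the fits of single doses were added after the data were seen.

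By DESeq2, 959 genes were raised for the main effect, and it gave 418 higher and 667 lower for H9 against HH. A term for each dose gave 1575 raised and 1566 lowered genes, 50 nM only 120 and 170, 125 nM only 1018 and 895, and 250 nM only 2409 and 2035. Azacitidine alone against untreated gave 7 and 21, with romidepsin against romidepsin alone 7 and 28, no romidepsin term 120 and 174, and an adjusted p under 0.01 gave 125 and 183. H9 libraries alone gave 553 raised and 624 lowered genes, and slopes of 1951 higher and 1955 lower. Of the 93 genes named here that were called for the main comparison, 50 still passed with H9 libraries alone and 43 did not. At an adjusted p under 0.01, 41 of the 93 passed and 52 did not. The cause of these changes was not tested.

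Uncalled log2 effects near 0 changed sign for DNMT1 (0.025 at 250 nM only), TET1 (0.030 at 50 nM only), UCK1 (-0.0013 at 50 nM only), CD4 (-0.11 at 250 nM only) and CD7 (-0.090 at 50 nM only). DCK changed sign at 50 nM only (0.085) and for azacitidine alone (0.023), and leaving out 1 library gave -0.043 to 0.024. No paired analysis was possible because each condition of a line has 1 library and the labels give no replicate numbers. At 3 counts, the floor of 0.103 to 0.133 CPM limits statements on genes near 0.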
